A study of Mus musculus with 14 samples.

Results

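The region examined here is the stretch of mouse chromosome 18 that surrounds Nr3c1, the gene of the glucocorticoid receptor (GR). It holds every gene lying wholly within 10 Mb of Nr3c1 on either side (mm10 chromosome 18, 29410545 to 49487245), without Nr3c1 itself, the clustered protocadherin genes, small RNA genes and unnamed predicted loci. By this rule 153 of the 24537 genes in each deposited table are members, and 369 further genes of chromosome 18 lie outside the region. The rule itself uses position only, but the region was selected on the Treg values of Reep5, Stard4, Srp19 and Prelid2, which were already known to be higher in GR KO in these libraries. For that reason all values from Treg cells are given below as a description, with no p-value for any member, and the tests are those in hair follicle stem cells.

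Treg GR KO (5 libraries) and Treg GR WT (3 libraries) are regulatory T cells sorted from skin 1 day after hair depilation. HFSC GR KO (3 libraries) and HFSC GR WT (3 libraries) are CD34-positive, integrin alpha 6-high hair follicle stem cells sorted 4 days after depilation. GR KO mice carry a floxed GR gene and a YFP-Cre driven from Foxp3, per the labels' protocols (Foxp3YFP-Cre GRfl/fl). WT mice are described as wild type only: the labels do not say whether they carry the Cre, and they give no strain, age, sex or breeding history and do not say that each library is a separate mouse. P-values therefore measure the spread between these libraries, which may in part be technical.

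Cre recombinase removes the DNA between a pair of loxP sites, and Foxp3 is expressed in Treg cells. By design, Nr3c1 is therefore cut in Treg cells, while HFSC of mice of that genotype keep the floxed gene. A floxed allele is bred as part of a chromosome, and genes near it are inherited together with it at a rate that falls with distance. The region carries no common pathway. It includes genes of protein targeting, RNA processing, membrane traffic and growth factor signalling.

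Abundance is given in TPM, the read count scaled to transcript length and to library size, so that levels can be compared between genes. Recovered read tags numbered 9.17 M to 14.5 M per Treg library and 4.50 M to 7.99 M per HFSC library, and 3 tags of a transcript of 2000 bases corresponded to 0.138 to 0.207 TPM and 0.308 to 0.515 TPM in those tables. These floors cover counting error only. Nr3c1 stood at 61.3% of its WT mean in Treg GR KO (129.5 ± 27.3 TPM in KO against 211 ± 35.3 TPM in WT, SD, n = 5 and 3). An exact permutation test, two-sided, gave p = 0.0536, where 0.0179 is the least it can give. TPM covers the whole transcript, and which of its exons are floxed is not given in the sources used here. In HFSC it was at 43.6 ± 6.89 TPM in KO against 41.6 ± 7.07 TPM in WT (SD, n = 3 each), and the same exact test gave p = 0.8, with 0.1 as the least possible. HFSC WT replicate 1 had a score of 59.8 on the leading principal component, where the other 5 scored -17.7 to -4.0, so HFSC values of the leading genes are also given without it. The 8 T cell genes used to check the sort summed to 6621 to 9801 TPM in Treg GR KO against 8741 to 9763 TPM in Treg GR WT. The 8 follicle stem cell genes summed to 13970 to 17110 TPM in HFSC GR KO against 18250 to 23210 TPM in HFSC GR WT, so both sorts match their labels.

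A gene was tested in a table where its mean was at least 1 TPM. Of the 153 members, 81 were tested in both tables, 7 in Treg cells only, 14 in HFSC only and 51 in neither. Among the 51, 24 genes were at 0 in every library, and 45 stayed below 1 TPM in every library. That leaves 88 tested members in Treg cells and 95 in HFSC. In Treg cells Nrep, Hbegf and Spink5 reached the minimum through the WT libraries alone.

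Reep5, which encodes a membrane-shaping protein of the tubular endoplasmic reticulum, lies 5.04 Mb from Nr3c1 at lower coordinates (34344886 to 34373415, minus strand, NM_007874). In Treg GR KO its level was 229.4, 205, 229.5, 194.5 and 216 TPM, against 113, 117 and 105 TPM in Treg GR WT. Every KO library lay well above every WT library, and the KO mean was 192% of the WT mean (log2 fold change 0.94, SE 0.09, on log2(TPM + 1)). In HFSC GR KO the level was 257, 261 and 296 TPM, against 193, 219 and 213 TPM in HFSC GR WT. Those groups did not overlap either, with a smaller difference (log2 fold change 0.38, SE 0.10, 95% interval 0.15 to 0.61) that did not pass over the whole table (limma adjusted p = 0.136). Without WT replicate 1 the HFSC value was 0.33 (limma adjusted p = 0.147).

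Srp19 encodes a protein subunit of the signal recognition particle, which brings nascent secretory proteins to the endoplasmic reticulum. It lies beside Reep5, 8.3 kb away on the plus strand (34331145 to 34336599, NM_025527). Its level was 148, 121, 106, 140.4 and 120.2 TPM in Treg GR KO, against 71.6, 79.0 and 68.7 TPM in Treg GR WT. Every KO library thus lay above every WT library (log2 fold change 0.78, SE 0.12). In HFSC GR KO it was at 60.9, 74.9 and 66.7 TPM, against 71.1, 49.1 and 54.5 TPM in HFSC GR WT. The HFSC groups overlapped through WT replicate 1 (log2 fold change 0.22, SE 0.16, 95% interval -0.13 to 0.58, limma adjusted p = 0.515). Without that library the value was 0.37 (limma adjusted p = 0.172).

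Stard4, which encodes a sterol transfer protein, lies 6.20 Mb from Nr3c1 at lower coordinates (33199138 to 33213862, minus strand, NM_133774). Its level was 37.9, 46.6, 41.2, 46.9 and 50.7 TPM in Treg GR KO, against 21.9, 18.8 and 26.4 TPM in Treg GR WT. The KO mean was 199.7% of the WT mean, with no overlap (log2 fold change 0.97, SE 0.14). HFSC GR KO held 30.3, 32.9 and 23.1 TPM, against 13.7, 16.5 and 20.5 TPM in HFSC GR WT. These groups did not overlap, and the difference did not pass over the whole table (log2 fold change 0.73, SE 0.19, 95% interval 0.29 to 1.17, limma adjusted p = 0.128, or 0.60 and 0.158 without WT replicate 1).

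Stard4 is itself a target of the sterol-responsive factor SREBP, which drives cholesterol synthesis genes. A list of 15 such genes, chosen after the data were seen, summed to 281 to 370.3 TPM in Treg GR KO against 328 to 437 TPM in Treg GR WT. In Treg cells 0 of its 14 tested genes lay above WT in every KO library and 1 lay below, against 3.42% and 5.1% of all genes. In HFSC the same list summed to 4517 to 5518 TPM in GR KO against 2551 to 3313 TPM in GR WT. There 12 of 15 genes were higher in every KO library, against 10.7% of all genes. The sum of 8 sebocyte and adipocyte genes was also higher there (6609 to 8178 TPM in KO against 3067 to 4667 TPM in WT). The part of these genes in the HFSC value of Stard4 was not tested.

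Prelid2 belongs to the PRELI domain family, relatives of which move phospholipids between mitochondrial membranes. It is the only leading gene on the other side of Nr3c1, 2.39 Mb away at higher coordinates (41875696 to 41951194, minus strand, NM_029942). Its level was 32.8, 16.5, 32.2, 22.7 and 31.8 TPM in Treg GR KO, against 14.6, 9.80 and 11.4 TPM in Treg GR WT. KO replicate 2 came close to WT replicate 1, and the groups did not overlap (log2 fold change 1.09, SE 0.23). In HFSC Prelid2 was scarce, at 1.90, 3.45 and 3.12 TPM in GR KO against 0, 3.55 and 3.17 TPM in GR WT. These values rest on few reads, 9.3 tags on average in KO and 6.7 in WT, and a difference was not detectable at this depth (log2 fold change 0.49, 95% interval -0.83 to 1.81, -0.21 without WT replicate 1, limma adjusted p = 0.709).

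**Figure D1:**
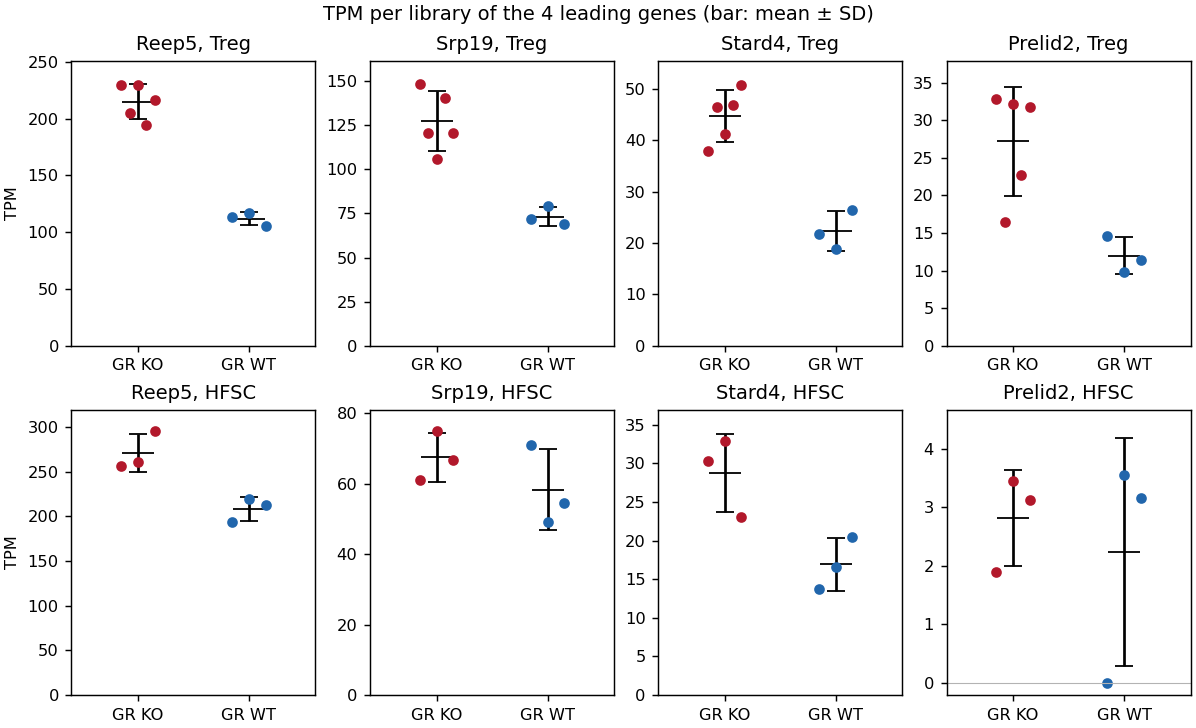
TPM per library (y axis, from 0) of Reep5, Srp19, Stard4 and Prelid2 in GR KO (left, red) and GR WT (right, blue) libraries of Treg cells (top) and HFSC (bottom); points are libraries and bars are mean ± SD. All 4 genes are separated between the Treg groups, whereas in HFSC only Reep5 and Stard4 are.

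Reep5 and Srp19 are each other's nearest tested neighbours, and both were higher in Treg GR KO. Other close neighbours of the leading genes, named here after their values were seen, had lower Treg values. Apc, the tumour suppressor gene that limits beta-catenin, ends 9.0 kb before Srp19, and its Treg log2 fold change was -0.39, with overlapping groups. Fam13b, 68.9 kb beyond Reep5, was at 0.18. Camk4, a calcium- and calmodulin-dependent kinase gene of T cells, lies 3.4 kb from Stard4 and was at -0.03 (33.5 ± 2.17 TPM in Treg GR KO against 34.3 ± 4.47 TPM in Treg GR WT, SD, n = 5 and 3). Nrep, 223 kb away on the other side of Stard4, was at -0.80, with overlapping groups. It reached the minimum of 1 TPM through the WT libraries alone. The nearest members around Prelid2 that were tested in Treg cells are Yipf5, 1656 kb away, at 0.13 in Treg cells, and Lars, 251 kb away, at 0.26. Camk4 is thus the only one of these with a Treg value near 0 within 10 kb of a leading gene.

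The nearest gene on each side of Nr3c1 that was tested in Treg cells differed little there. The next ones out were Ndfip1 (Treg log2 fold change 0.23) and Prelid2 (1.09), both with no overlap. Arhgap26, a GTPase-activating protein gene 0.03 Mb away, was at 3.21 ± 0.44 TPM in Treg GR KO against 3.64 ± 0.838 TPM in Treg GR WT (log2 fold change -0.13). Yipf5, a gene of Golgi and endoplasmic reticulum traffic at 0.72 Mb on the other side, was at 30.9 ± 2.44 TPM in Treg GR KO against 28.4 ± 4.42 TPM in Treg GR WT. In HFSC it was at 27.7 ± 1.63 TPM in KO against 29.7 ± 0.344 TPM in WT (log2 fold change -0.10, SE 0.12, limma adjusted p = 0.712). Fgf1, a fibroblast growth factor gene at 0.49 Mb, was untested in Treg cells: it was at 0 in all 5 KO libraries and at 0.071 to 0.641 TPM in the 3 WT libraries. In HFSC Fgf1 was at 17.4 ± 6.72 TPM in KO against 17.0 ± 1.55 TPM in WT (log2 fold change -0.03, SE 0.25, limma adjusted p = 0.97).

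Ndfip1, 0.95 Mb from Nr3c1, encodes an adaptor of Nedd4-family ubiquitin ligases that restrains T cell activation, and it was the most abundant member in Treg cells. Its level was 799, 819.8, 774, 828 and 811 TPM in Treg GR KO, against 692, 724 and 648 TPM in Treg GR WT. The groups were apart by a small margin (log2 fold change 0.23, SE 0.08), a separation that was lost under quantile normalization. HFSC held 129.6, 126 and 142 TPM in GR KO, against 85.9, 109.9 and 107.5 TPM in GR WT. The HFSC groups did not overlap, and the difference did not pass over the whole table (log2 fold change 0.40, SE 0.12, 95% interval 0.12 to 0.67, limma adjusted p = 0.173, or 0.28 and 0.170 without WT replicate 1).

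Ctnna1, the alpha-catenin gene of adherens junctions, was the only member that lay lower in KO with no overlap in both tables. It was at 44.3, 46.8, 56.0, 55.9 and 53.9 TPM in Treg GR KO, against 57.4, 60.5 and 71.6 TPM in Treg GR WT. In HFSC GR KO it was at 156, 158 and 136 TPM, against 179.97, 163 and 173 TPM in HFSC GR WT (log2 fold change -0.20, SE 0.10, limma adjusted p = 0.371). Basal keratinocyte genes, described with Spink5, were also lower in Treg GR KO, and their part in this value was not tested. The gene contains Lrrtm2 on the opposite strand, and whether strand was used in counting is not given in the sources used here.

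Over the whole region, 5 of 88 tested members lay above WT in every Treg GR KO library, or 5.68%, against 3.42% of all genes tested. They were Ndfip1 and the 4 genes the region was selected on, Reep5, Stard4, Srp19 and Prelid2, so nothing is read from that share. Another 5, Cd14, Spink5, Ik, Ctnna1 and Ythdc2, lay below in every KO library, against 5.1% of all genes. By limma's adjusted p in Treg cells, 4 members were higher, against 0.199% of all genes, and 2 were lower, against 1.31%. The 4 are the genes that brought the region up, so nothing is read from that count. The 2 lower calls, Cd14 and Spink5, were both lost without WT replicate 3, and Cd14 also without WT replicate 1. Spink5 entered the test through its WT libraries alone, so nothing is read from its place among the lower members. With no filter on low values it was also called, with the same log2 fold change (-2.82) and no overlap.

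Cd14 and Spink5 are both known from other cell types than Treg cells. Cd14, the lipopolysaccharide coreceptor gene of monocytes and macrophages, was at 18.3, 5.94, 11.8, 8.66 and 7.0 TPM in Treg GR KO, against 37.8, 27.4 and 46.3 TPM in Treg GR WT. Spink5, a protease inhibitor gene of the epidermis, was at 0 in 4 Treg GR KO libraries and at 1.83 TPM in KO replicate 3, against 4.19, 6.17 and 16.7 TPM in Treg GR WT. Transcripts of those cell types moved with both genes, and so did others. In Treg GR KO, 5 neutrophil genes summed to 0 to 20.8 TPM against 75.7 to 325 TPM in Treg GR WT. Sums of fibroblast and endothelial genes were also lower in every KO library, while those of sebocyte and adipocyte genes and of melanocyte genes overlapped. The 10 macrophage and monocyte genes, Cd14 among them, summed to 64.2 to 178 TPM in Treg GR KO against 208 to 372.5 TPM in Treg GR WT. Of these, 7 of 10 were lower in every KO library, against 5.1% of all genes. The 10 basal keratinocyte genes summed to 34.5 to 143 TPM in Treg GR KO against 494 to 760.5 TPM in Treg GR WT. Here 8 of 10 were lower in every KO library, against the same 5.1%. No gene of either list was at 0 in all Treg libraries. Their part in the values of Cd14 and Spink5 was not tested. In these bulk samples, fewer cells of a type and less RNA per cell cannot be told apart. Both genes were scarce in HFSC: Cd14 averaged 0.429 TPM in KO against 0.569 TPM in WT, and Spink5 averaged 1.95 TPM in KO against 2.01 TPM in WT.

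**Figure D2:**
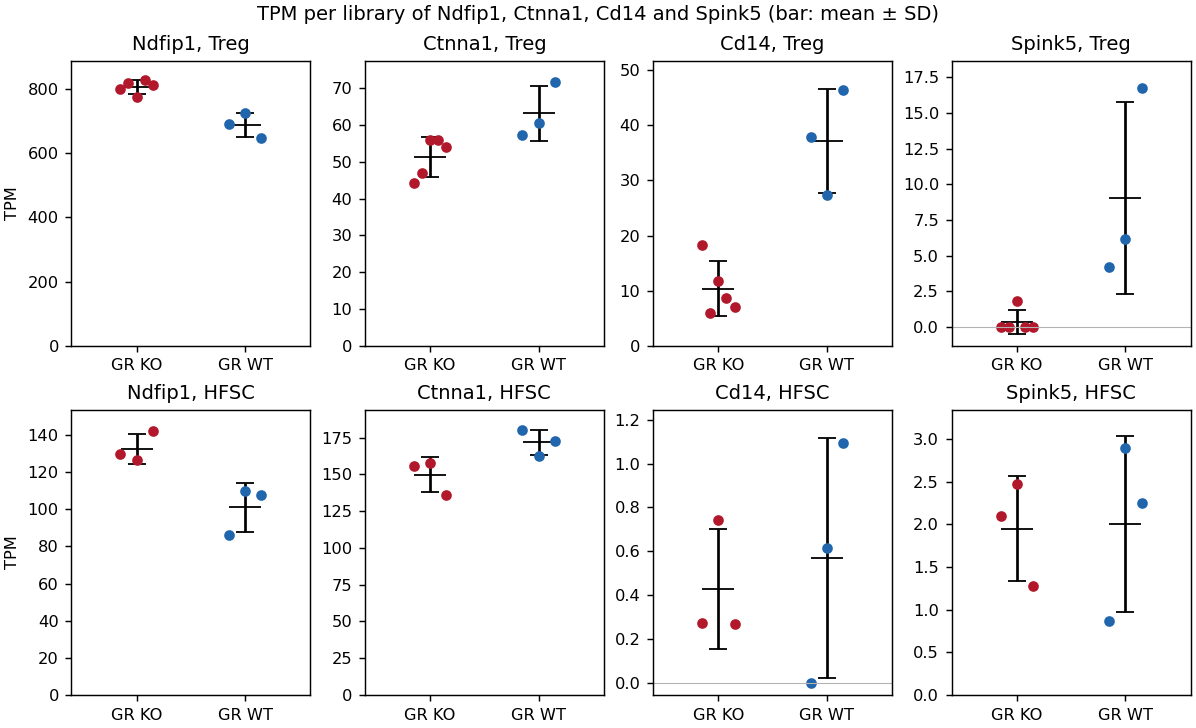
TPM per library (y axis) of Ndfip1, Ctnna1, Cd14 and Spink5 in GR KO (left, red) and GR WT (right, blue) libraries of Treg cells (top) and HFSC (bottom); points are libraries and bars are mean ± SD. Ndfip1 is higher and Ctnna1 lower in KO in both cell types, while Cd14 and Spink5 are separated in Treg cells only.

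In HFSC no member passed the test: limma called 0 of 95 higher, against 0.144% of all genes, and 0 of 95 lower, against 0.032%. An unadjusted p under 0.05 was found for 13 of the 95 members, or 13.7%, against 16.6% of all genes. Every KO library lay above every WT library for 7 members, or 7.37%, against 10.7% of all genes. For 11 members, or 11.6%, every KO library lay below, against 12.8% of all genes. By these counts the region did not stand above the rest of the genome in HFSC. The median HFSC log2 fold change was -0.04 over the members and -0.02 over all genes, and the median absolute value was 0.21 over both.

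By distance, 3 of the 4 leading genes lay more than 5 Mb from Nr3c1. The Treg counts by bin that follow hold the genes the region was selected on, and over all genes 3.42% lay above and 5.1% below. Of the 14 tested members 5 to 7.5 Mb from Nr3c1 at lower coordinates, 3 lay above WT in every Treg GR KO library (Stard4, Srp19 and Reep5) and 0 lay below. In the next 2.5 Mb inward 38 members were tested, of which 0 lay above and 3 lay below. Within 2.5 Mb on that side 1 of 11 lay above (Ndfip1), and the 6 members 7.5 to 10 Mb away all overlapped. At higher coordinates only 2 members within 2.5 Mb were tested, Yipf5 and Prelid2, and Prelid2 lay above. Of the 6 and 11 members farther out on that side, 0 lay above and 1 each lay below. The median absolute Treg log2 fold change lay between 0.13 and 0.31 in the bins at lower coordinates. At higher coordinates it was 0.61 over the 2 members within 2.5 Mb, 0.42 over the 6 at 2.5 to 5 Mb and 0.19 over the 11 at 5 to 7.5 Mb, against 0.18 over all genes.

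**Figure D3:**
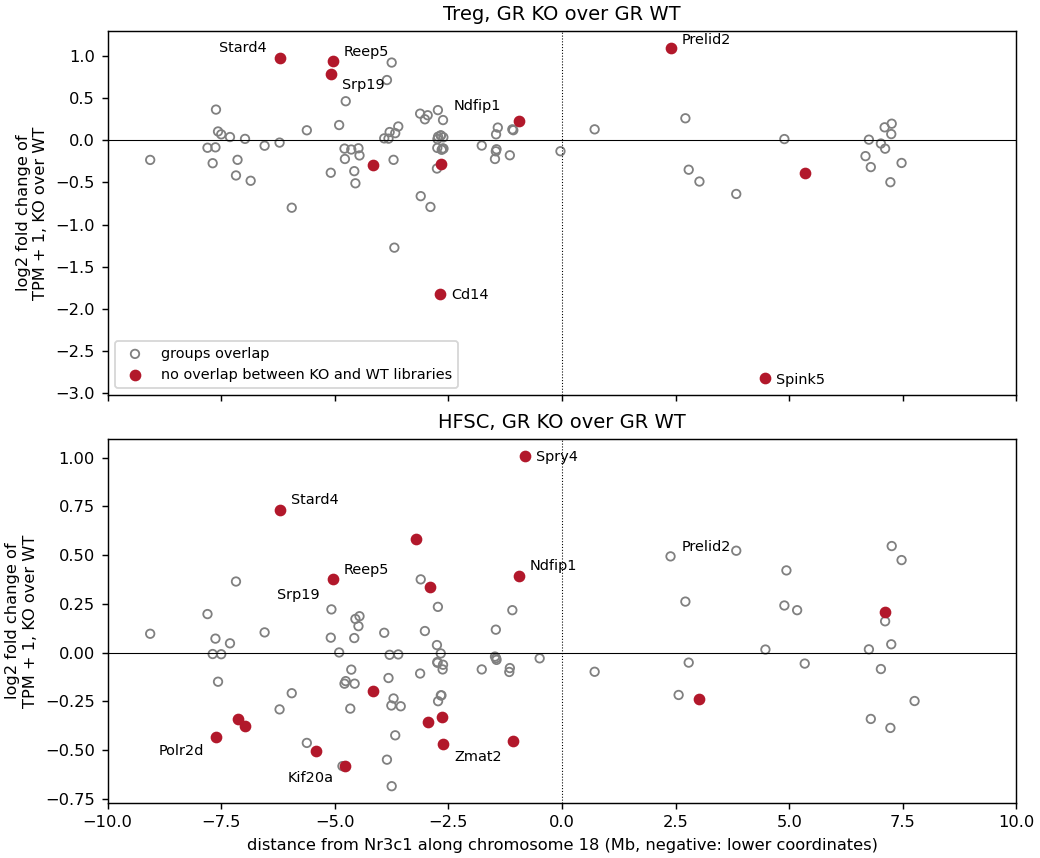
Log2 fold change of TPM + 1, KO over WT (y axis), of each tested member against its distance from Nr3c1 in Mb (x axis) for Treg cells (top, 88 genes) and HFSC (bottom, 95 genes); filled points have no overlap between KO and WT libraries. Stard4, Srp19 and Reep5 lie 5.04 to 6.20 Mb out in the upper panel and Prelid2 at 2.39 Mb, with members near 0 between them.

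In HFSC, where 10.7% of all genes lay above and 12.8% below, higher and lower members were spread over the bins at lower coordinates. Within 2.5 Mb on that side 2 of 12 tested members lay above (Ndfip1 and Spry4) and 1 below (Gnpda1). Across the 41 members 2.5 to 5 Mb away, 2 lay above and 5 below. At 5 to 7.5 Mb, 2 of 14 lay above (Stard4 and Reep5) and 3 below (Ercc3, Bin1 and Epb41l4a). Of the 6 members 7.5 to 10 Mb away, 0 lay above and 1 below (Polr2d). At higher coordinates 1 of 22 tested members lay above (Tmed7).

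At the edges of the region, Pik3c3 (9.06 Mb) and Slc25a46 (7.80 Mb) are the outermost tested members at lower coordinates. Their Treg log2 fold changes were -0.24 and -0.09, and their HFSC values 0.10 and 0.20. Sema6a (7.76 Mb) and Commd10 (7.47 Mb) are outermost at higher coordinates, with HFSC values of -0.25 and 0.48. Without HFSC WT replicate 1, Commd10 was at 0.07 and Slc25a46 at 0.09. Commd10 was at -0.27 in Treg cells, where Sema6a was not tested. Beyond the edge, AW554918 (13.9 Mb) was at -0.31 in Treg cells and -0.14 in HFSC, and Celf4 (13.7 Mb) at -0.38 in HFSC. On the other side Dtwd2 (10.2 Mb) was at 0.20 in Treg cells and -0.19 in HFSC. Dmxl1 (10.35 Mb) was at -0.17 in Treg cells and 0.54 in HFSC.

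The 81 members tested in both tables shared a sign about as often as other genes. The Treg and HFSC tables have no library in common. Of these 81 members, 4 had no overlap in both tables in the same direction (Reep5, Stard4 and Ndfip1 higher, Ctnna1 lower), or 4.94%, against 0.83% of all genes tested in both. As 2 of these were chosen for their Treg values, the share is a description. None of the 81 had no overlap in opposite directions, against 1.2% of all genes. The sign was the same for 40 of 81, or 49.4%, against 48.4% of all genes. Across members, the log2 fold changes of the tables gave a Pearson correlation of 0.02 and a Spearman correlation of 0.001 (n = 81 genes, which are not independent replicates). Without the 4 leading genes the Pearson correlation was -0.22 over 77 members, and over all other genes it was -0.01.

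**Figure D4:**
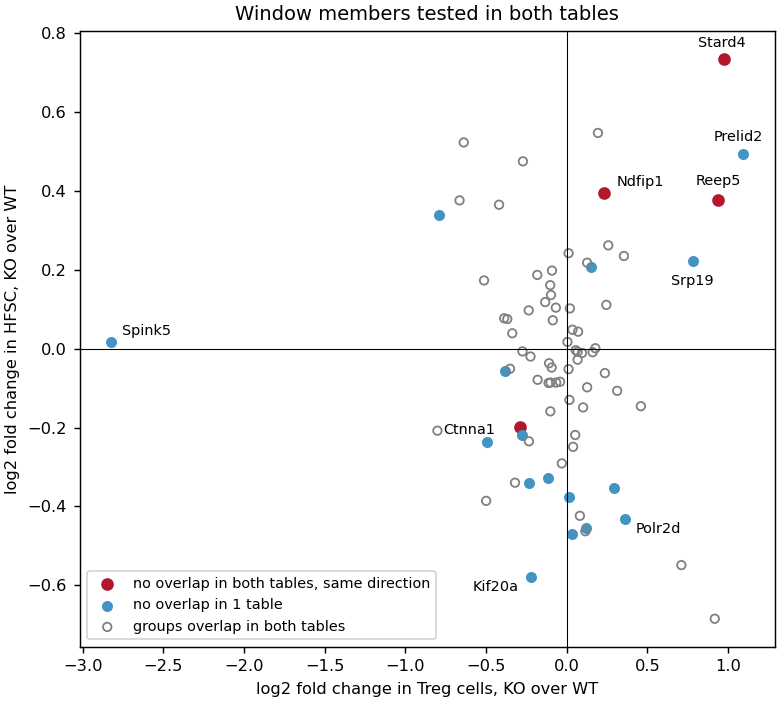
Log2 fold change of KO over WT in HFSC (y axis) against that in Treg cells (x axis) for the 81 members tested in both; red points have no overlap in both tables in the same direction, blue points in 1 table. Stard4, Reep5, Srp19, Prelid2 and Ndfip1 lie at the upper right and Ctnna1 at the lower left, and the remaining members show no shared direction.

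By role, the 13 genes of protein synthesis, folding and targeting were all tested in both tables. In Treg cells 2 lay above WT in every KO library and 0 below, where 3.42% of all genes lay above. Both, Reep5 and Srp19, are genes the region was selected on, and Reep5 was counted here although its protein shapes endoplasmic reticulum membranes. The Treg list median was 0.02 against -0.04 over all genes. In HFSC 1 lay above (Reep5) and 1 below, against 10.7% and 12.8% of all genes. The gene below was Pfdn1, a subunit gene of the chaperone prefoldin, at 72.7 ± 8.50 TPM in KO against 92.97 ± 8.003 TPM in WT (SD, n = 3 each, log2 fold change -0.35, SE 0.12, limma adjusted p = 0.207). Lars, the cytosolic leucyl-tRNA synthetase gene, was at 44.8 ± 3.63 TPM in KO against 37.8 ± 9.08 TPM in WT (log2 fold change 0.26, limma adjusted p = 0.51, or 0.07 and 0.801 without WT replicate 1).

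Genes of RNA transcription and processing gave 0 of 20 above and 4 of 20 below in HFSC, against 10.7% and 12.8% of all genes, with a median of -0.10 against -0.02, and 0 passed the test. Polr2d, a subunit gene of RNA polymerase II, was at 35.2, 37.2 and 32.4 TPM in HFSC GR KO, against 48.1, 46.5 and 47.7 TPM in HFSC GR WT. Its groups were clearly apart, yet the difference did not pass over the whole table (log2 fold change -0.43, SE 0.11, limma adjusted p = 0.123). The splicing gene Zmat2 was at 46.5 ± 5.17 TPM in KO against 65.7 ± 15.6 TPM in WT (log2 fold change -0.47, SE 0.17, limma adjusted p = 0.235, or -0.29 and 0.26 without WT replicate 1). The TFIIH helicase gene Ercc3 was at 26.95 ± 0.764 TPM in KO against 34.7 ± 6.36 TPM in WT (limma adjusted p = 0.301). In Treg cells 0 of 19 lay above and 1 below, against 3.42% and 5.1% of all genes. The gene below was the spliceosome gene Ik, at 139 ± 9.37 TPM in KO against 168 ± 6.18 TPM in WT.

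In membrane traffic and lipid transfer, the list of Stard4 and Prelid2, the 2 of 14 members that lay above in Treg cells (3.42% of all genes did) were those same selected genes, and 0 lay below (median 0.10 against -0.04). In HFSC 2 of 13 lay above (Stard4 and Tmed7) and 1 below, against 10.7% and 12.8% of all genes (median 0.11 against -0.02). That 1 was Bin1, a membrane-curvature gene, at 6.23 ± 0.369 TPM in KO against 8.42 ± 1.12 TPM in WT (limma adjusted p = 0.356). Ap3s1, an adaptor subunit gene of lysosomal sorting, was at 14.7 ± 5.09 TPM in HFSC GR KO against 9.51 ± 1.63 TPM in HFSC GR WT (log2 fold change 0.55, SE 0.25, limma adjusted p = 0.314), with groups that overlapped.

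Signalling genes, growth factors and early genes were 12 tested members in HFSC, of which 4, or 33.3%, lay above in every KO library and 0 below, against 10.7% and 12.8% of all genes. Their median was 0.35 against -0.02 over all genes, and 0 passed the test. Spry4, which encodes a feedback inhibitor of receptor tyrosine kinase signalling, lies 0.81 Mb from Nr3c1. It was at 5.48, 6.54 and 9.92 TPM in HFSC GR KO, against 2.25, 3.82 and 3.16 TPM in HFSC GR WT. All KO values exceeded all WT values, with the largest log2 fold change among tested members in HFSC (1.01, SE 0.28, 95% interval 0.37 to 1.65, limma adjusted p = 0.144, or 0.86 and 0.172 without WT replicate 1). Hbegf, a ligand gene of the epidermal growth factor receptor, was at 22.6 ± 1.82 TPM in KO against 17.7 ± 1.93 TPM in WT (log2 fold change 0.34, SE 0.14, limma adjusted p = 0.285). Ndfip1 and Nrg2 were the other two. Egr1, an immediate early gene, was the most abundant member in HFSC, at 2210 ± 304 TPM in KO against 1947 ± 65.1 TPM in WT (limma adjusted p = 0.526). In Treg cells 8 members of this list were tested, with a median of -0.40 against -0.04, 1 above (Ndfip1) and 0 below, where 3.42% of all genes lay above. The lowest of them, Hbegf (-0.79), reached the minimum of 1 TPM through the WT libraries alone, so nothing is read from that median. Egr1 was at 106.5 ± 31.3 TPM in Treg GR KO against 166 ± 106 TPM in Treg GR WT, where WT replicate 3 held 288 TPM.

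The list of cell cycle and ubiquitin genes gave 0 of 7 above and 2 of 7 below in HFSC (Kif20a and Ctnna1). Over all genes 10.7% lay above and 12.8% below, and the list median was -0.15 against -0.02. Ctnna1 was counted in this list although it is an adherens junction gene. Kif20a, a kinesin gene of late mitosis, was at 42.1, 33.3 and 35.9 TPM in HFSC GR KO, against 52.3, 49.3 and 66.7 TPM in HFSC GR WT. The groups did not overlap (log2 fold change -0.58, SE 0.15, limma adjusted p = 0.127), and the gene overlaps Cdc23 on the opposite strand. Cdc25c, a phosphatase gene of mitotic entry, was at 16.3 ± 3.80 TPM in KO against 20.2 ± 5.01 TPM in WT (limma adjusted p = 0.571). Of 3 immune genes tested in Treg cells, Tmem173, the STING gene of cytosolic DNA sensing, was at 118 ± 11.3 TPM in Treg GR KO against 111 ± 5.14 TPM in Treg GR WT. In HFSC it was at 4.56 ± 1.39 TPM in KO against 6.45 ± 1.84 TPM in WT (limma adjusted p = 0.484).

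The remaining members named for their high level showed small differences. Paip2, an inhibitor of poly(A)-binding protein, was at 307 ± 15.03 TPM in Treg GR KO against 287 ± 12.1 TPM in Treg GR WT. Ndufa2, a respiratory complex I subunit gene, was at 220.0 ± 26.5 TPM in Treg GR KO against 214 ± 43.1 TPM in Treg GR WT. In HFSC the mitochondrial chaperone gene Hspa9 was at 299 ± 31.2 TPM in KO against 264 ± 43.0 TPM in WT (log2 fold change 0.19, SE 0.14, limma adjusted p = 0.531). The histone deacetylase gene Hdac3 was at 135 ± 9.19 TPM in KO against 124 ± 10.04 TPM in WT (log2 fold change 0.12, SE 0.11, limma adjusted p = 0.614).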

How the data were processed

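RNA from sorted cells was made into stranded mRNA libraries, per the labels' protocols. FastQC, Trim Galore, STAR, HOMER and build mm10 are named, without versions, per the submitters' processing notes. The authors deposited 1 table of TPM per cell type, with 1 RefSeq transcript and its length per gene symbol, per the file headers. Whether strand was used in counting is not given in the sources used here. For 9 members the tables use different transcripts, none of them given with values. The unexplained prefix of the HFSC columns was set aside, and genotype and replicate number tied each column to its library.

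Tags were recovered from TPM times length, since 100% of the low values checked were whole multiples (within 0.1) of what 1 tag is worth. Groups and replicate numbers came from the titles. Each table was filtered to a minimum mean of 1 TPM and log2(TPM + 1) values were compared by limma (version 3.58.1, R 4.3.3; trend, two-sided), with p-values adjusted after Benjamini and Hochberg over every gene kept and a threshold of 0.05. The pseudocount understates changes of low genes. The tables were normalized separately, so no test spans them. Distances run between the nearest gene ends.

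The members, role lists and tests were chosen with earlier results of these data known. Genes with values are the 4 leading genes, calls, members with no overlap in both tables, the nearest, outermost and most abundant members, and up to 3 per role list by HFSC p. Others are named as chosen later or only counted (Epb41l4a, Gnpda1, Nrg2, Tmed7, Ythdc2). Alternatives covered the pseudocount, filter, scaling, prior, replicate block, genes of other cells and each replicate left out.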

Additional observations from a re-analysis of the deposited data

Results flagged for a closer look

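In 3 of 30 named genes checked, 1 of the 5 Treg GR KO libraries lay far from the other 4, where chance alone flags about 1 group in 20. Spink5 was at 1.83 TPM in KO replicate 3 and at 0 in the other KO libraries. Any value above 0 in that library would have been flagged, so the rate of 1 in 20 does not apply to Spink5. Pik3c3 was at 21.7 TPM in KO replicate 4, with the others at 15.6 to 16.5 TPM. Ik was at 122.5 TPM in KO replicate 3, with the others at 140.1 to 147 TPM.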

How the results depend on the processing

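In HFSC no member was called under any of the 15 alternatives, although the 22 calls over all genes became 48 with a mean of at least 5 TPM, 69 with median ratio scaling, 58 with quantile normalization, 51 with a robust prior and 2 with no filter on low values. In Treg cells 6 members were called, among them Reep5, Srp19, Stard4 and Prelid2. The region was selected on the Treg values of these genes, so the Treg counts are a description and lend them no support. Leaving out 1 replicate gave 3 to 6, the 3 being Reep5, Srp19 and Stard4 without WT replicate 3. Spink5 and Cd14 were lost there, and Cd14 also without WT replicate 1. Prelid2 was called in only 5 of 17 alternatives. The 175 calls over all genes in Treg cells became 84 without genes at least 5 times higher in HFSC, and 84 to 186 with 1 replicate left out (WT replicate 3 for the 84, while WT replicate 1 gave 107). In HFSC, leaving out 1 replicate gave 0 to 5. With 1 replicate left out, members with no overlap numbered 10 to 22 in Treg cells (10 with all, 22 without WT replicate 1 or 2) and 21 to 33 in HFSC (18 with all), as fewer libraries separate more easily. Those in both tables numbered 4 to 5. The correlation between tables of 0.017 became 0.113 with a mean of at least 5 TPM, 0.102 with a pseudocount of 5, 0.133 without genes higher in HFSC, -0.063 without genes higher in Treg cells and -0.042 to 0.067 with 1 replicate left out.

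The replicate numbers did not pair the libraries: deviations of same-numbered libraries correlated at 0.17, 0.0873 and -0.117 in Treg cells and 0.0156, 0.0619 and -0.042 in HFSC. With a replicate block, 78 genes were called in Treg cells (3 members: Cd14, Reep5 and Spink5) and 66 in HFSC (0 members), and the correlation between tables was -0.042.

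HFSC values of 4 genes changed sign. Prelid2 was at -0.213 without WT replicate 1, and leaving out any 1 replicate gave -0.213 to 0.88. Spink5 was at -0.005 with a pseudocount of 5, -0.025 with quantile normalization and -0.294 to 0.236 with 1 replicate left out. Fgf1 was at -0.301 to 0.223 with 1 replicate left out, above 0 without KO replicate 3 or WT replicate 3. Paip2 was at 0.003 with median ratio scaling and at -0.076 to 0.06 with 1 replicate left out. In Treg cells 5 values near 0 also changed sign, with ranges over the alternatives of -0.258 to 0.061 for Arhgap26, -0.082 to 0.081 for Bin1, -0.314 to 0.028 for Hdac3, -0.113 to 0.182 for Ndufa2 and -0.008 to 0.074 for Zmat2. The cause of these shifts was not tested. No scaling moved the median of all genes by over 0.1 on the log2 scale.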

Other observations

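Many members differ in level between the cell types, given here as a description since the tables were normalized separately. Ndfip1 averaged 806 TPM in Treg GR KO and 688 TPM in Treg GR WT, and 133 TPM in HFSC GR KO and 101 TPM in HFSC GR WT. The calcium-signalling kinase gene Camk4 averaged 33.5 and 34.3 TPM in Treg GR KO and WT, and 2.495 and 3.18 TPM in HFSC GR KO and WT. Egr1 and Nrep lay the other way, with Nrep at 0.831 and 2.25 TPM in Treg GR KO and WT, and 93.98 and 106 TPM in HFSC GR KO and WT.

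Snhg4, a small nucleolar RNA host gene 3.85 Mb from Nr3c1, was named after its values were seen. It was at 8.49 ± 1.84 TPM in Treg GR KO against 4.84 ± 1.51 TPM in Treg GR WT (SD, n = 5 and 3). In HFSC it was at 7.44 ± 1.001 TPM in GR KO against 12.2 ± 5.63 TPM in GR WT (SD, n = 3 each, limma adjusted p = 0.442). The groups overlapped in both tables, and the transcript overlaps Snora74a and Mir1949.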
